A study of Mus musculus with 5 samples.

Results

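Condensin and cohesin are ring-shaped protein machines that fold chromosomes, and the mRNAs of 10 of their subunits were followed in podocytes, the epithelial cells that wrap the filtering capillaries of the kidney. The subunits were taken by name: Smc2, Smc4, Ncapd2, Ncapd3 and Ncapg for condensin, and Smc1a, Smc3, Rad21, Stag1 and Stag2 for cohesin. All 10 were found among the 21019 genes with values, and all 10 passed the filter on low values described below. The study compared mice lacking the actin-binding protein profilin1 in podocytes with control mice, using 3 libraries labelled Pfn1-KO (column names N2, N3 and N4) and 2 libraries labelled control (N1 and N3), each pooled from 3 mice at 3 weeks of age with no treatment. According to the study's methods, the Pfn1-KO mice were Pfn1 fl/fl with Pod-Cre, a Cre recombinase driven by a podocyte-specific promoter, and the controls were Pfn1+/+. Mice of both genotypes carried Pod-Cre, a floxed diphtheria toxin receptor (Rosa-DTR fl) and a Cre-dependent GFP-tagged ribosomal protein L10a for translating ribosome affinity purification (TRAP). The methods give a C57BL/6 background for the Pod-Cre Rosa-DTR fl line and the TRAP line. Generated mice were backcrossed, to a strain that the methods do not name. The sample labels describe isolated podocytes and poly(A) RNA, whereas the methods describe a pulldown of GFP-tagged ribosomes from kidney cortex, so the values may be ribosome-bound mRNA rather than total mRNA. Pooling leaves 3 and 2 independent values a gene, and fewer cells of a type and less RNA per cell cannot be told apart.

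Both complexes are built round a pair of SMC ATPases, long coiled-coil proteins that join at a hinge and are closed into a ring by a kleisin subunit, with large HEAT-repeat proteins bound to the kleisin. In condensin, Smc2 and Smc4 are the ATPases of both forms of the complex, Ncapd2 and Ncapg are HEAT-repeat subunits of condensin I, and Ncapd3 is a HEAT-repeat subunit of condensin II. In cohesin, Smc1a and Smc3 are the ATPases, Rad21 is the kleisin, and Stag1 or Stag2 is the HEAT-repeat subunit that each ring carries. Condensin compacts chromosomes in mitosis, whereas cohesin holds sister chromatids together and also extrudes the chromatin loops that organise genes in cells that do not divide. Mature podocytes are post-mitotic.

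The libraries differed in more than genotype, and these differences touch every value below. The Pfn1-KO-labelled libraries held 18186900 to 24871893 gene-assigned reads and 20435 to 20980 genes above 0, whereas those labelled control held 23704366 and 22822635 reads but only 6901 and 7528 genes above 0. A ribosomal RNA gene, CT010467.1, had 346, 133787 and 194 FPKM (fragments counted per gene, scaled for gene length and library size) in Pfn1-KO N2, N3 and N4, against 291221 and 311036 FPKM in control N1 and N3. Nuclear protein-coding genes took 69.2%, 27.1% and 74.6% of summed FPKM in the Pfn1-KO-labelled libraries, against 13.2% and 16.2% in the control-labelled ones. Pfn1 itself was 41.9, 17.2 and 27.8 FPKM in the Pfn1-KO-labelled libraries, against 13.6 and 11.8 FPKM in the control-labelled ones (log2 fold change 1.05, adjusted p = 0.123). It was not lower under the Pfn1-KO label, so the direction of every comparison here is that of the labels. The values cover all exons of Pfn1 and only exon 1 was floxed, which limits this check. All 8 proximal tubule markers were called higher in the Pfn1-KO-labelled libraries (summed 3121 to 7074 FPKM, against 568 and 223 FPKM in the control-labelled ones), as were 5 of 8 podocyte markers (summed 105 to 525 FPKM, against 60.7 and 115 FPKM under the control label), beside 70.1% of all genes. Leukocyte markers summed to 138, 11.4 and 214 FPKM under the Pfn1-KO label, against 469 FPKM in control N1 and 3.56 FPKM in control N3, so the controls differed from each other. Of the podocyte markers, Wt1 was listed at 0 in control N1, and Ptpro in control N3. Of the proximal tubule markers, Slc5a2 was listed at 0 in control N1, and Cubn and Lrp2 in control N3. No marker of either list was at 0 under the Pfn1-KO label. The part of these differences in the results was not tested.

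The first comparison asked which subunits differed between the Pfn1-KO-labelled libraries and those labelled control. Smc4 was lower and Stag1 was higher, and the other 8 subunits did not pass the test. The test was limma on log2(FPKM + 1), run on the 14631 genes that reached 1 FPKM in 2 or more of the 5 libraries, with Benjamini-Hochberg adjustment over all of them and calls at an adjusted p under 0.05. Every log2 fold change below is on that scale, which understates the change of genes with few reads. Of all genes tested, 70.1% were called higher in the Pfn1-KO-labelled libraries and 2.13% lower, and the median log2 fold change was 1.75. The subunits had 1 of 10 called higher and 1 of 10 lower, with a median log2 fold change of 0.07. All 3 Pfn1-KO-labelled libraries lay above both controls for 80.1% of all genes and below both for 3.49%. For the subunits these counts were 4 of 10 (Ncapd2, Ncapd3, Stag1 and Stag2) and 2 of 10 (Smc4 and Smc3).

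**Figure D1:**
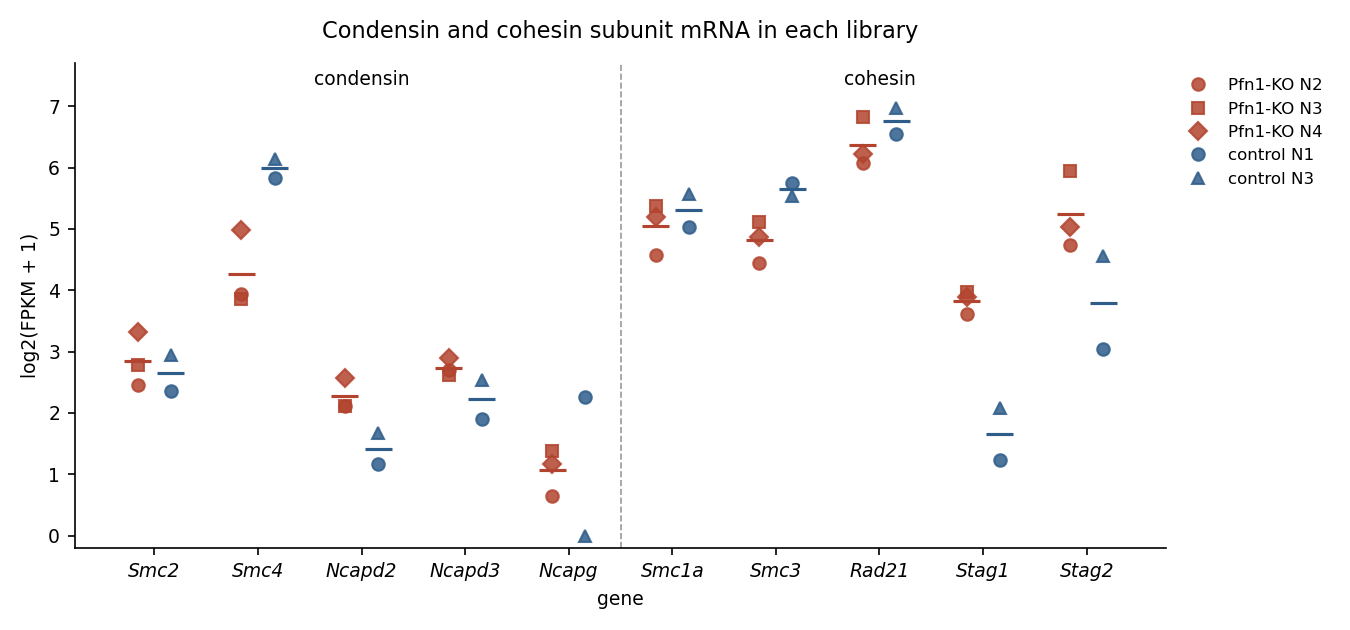
mRNA level of each subunit in each library, as log2(FPKM + 1), with condensin left and cohesin right of the dashed line. Points are single libraries (red, labelled Pfn1-KO; blue, labelled control) and horizontal lines are group means, drawn where no library is at 0; Smc4 lies lower, and Stag1 higher, in all 3 Pfn1-KO-labelled libraries than in both controls.

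Among the condensin ATPases, Smc4 (chromosome 3, 69004738 to 69034623, plus strand, GRCm38) was the only subunit of either complex called lower. Its level was 14.3, 13.5 and 30.5 FPKM in Pfn1-KO N2, N3 and N4, against 56.1 and 69.8 FPKM in control N1 and N3. The groups did not overlap, and Pfn1-KO N4 lay nearest to the controls. The log2 fold change was -1.73 (SE 0.58, adjusted p = 0.0337), or -3.48 relative to the median of all genes tested. The call did not hold without Pfn1-KO N2 (adjusted p = 0.140), N3 (0.0717) or N4 (0.0531), or without control N3 (0.0586), although the direction did. Smc2 (chromosome 4, 52439243 to 52488260, plus strand), the partner that Smc4 pairs with one to one in the ring, was 4.50, 5.86 and 8.99 FPKM under the Pfn1-KO label, against 4.14 and 6.67 FPKM under the control label. Here the groups overlapped, and the log2 fold change was 0.20 (SE 0.46, adjusted p = 0.697). Both ATPase genes have purine-rich coding sequences. The 50-base coding window richest in A and G is shown for each, on the sense strand, because Smc4 was the condensin gene called lower and Smc2 its partner that was not. The Smc4 window lies in exon 10 of 24 (chr3:69021311-69021360, plus strand) and the Smc2 window in exon 18 of 25 (chr4:52469842-52469891, plus strand). Capitals mark the longest unbroken run of purines.
Smc4: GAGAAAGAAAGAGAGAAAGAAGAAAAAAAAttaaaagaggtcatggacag
Smc2: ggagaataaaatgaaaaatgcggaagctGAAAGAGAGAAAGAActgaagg

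The HEAT-repeat subunits of condensin gave no call. Ncapd2 (chromosome 6, 125168007 to 125191701, minus strand) was 3.32, 3.34 and 4.96 FPKM in the Pfn1-KO-labelled libraries, against 1.24 and 2.18 FPKM in the control-labelled ones. Ncapd3 (chromosome 9, 27030175 to 27095315, plus strand) was 5.49, 5.17 and 6.40 FPKM in the Pfn1-KO-labelled libraries, against 2.73 and 4.83 FPKM in the control-labelled ones. All 3 Pfn1-KO-labelled libraries lay above both controls for either gene, by a log2 fold change of 0.85 for Ncapd2 (SE 0.38, adjusted p = 0.0785) and 0.52 for Ncapd3 (SE 0.40, adjusted p = 0.273). Both values lay below the median of all genes tested. Ncapg (chromosome 5, 45669919 to 45700546, plus strand) was 0.570, 1.61 and 1.25 FPKM under the Pfn1-KO label, against 3.77 FPKM in control N1 and a listed 0 in control N3. The 2 controls thus lay on opposite sides of all 3 Pfn1-KO-labelled libraries, with 631 recovered reads in control N1 and 0 in control N3, where a count of 0 allows up to 0.0186 FPKM by counting error alone. The log2 fold change was -0.06 (SE 0.66, adjusted p = 0.939), and its sign turned with the library left out. In GENCODE, 944 exon bases of Ncapg (13.4%) overlap Lcorl on the opposite strand, and 237 exon bases of Ncapd2 overlap the small RNA gene Scarna10. The strand setting of the counting was not given in the sources used here, so reads in these stretches cannot be assigned with certainty.

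The cohesin ATPases and the kleisin, which form the ring itself, did not pass the test. Smc1a (chromosome X, 152016428 to 152062694, plus strand) was 22.7, 40.3 and 35.7 FPKM in the Pfn1-KO-labelled libraries, against 31.8 and 46.6 FPKM in the control-labelled ones (log2 fold change -0.26, SE 0.55, adjusted p = 0.677). Smc3 (chromosome 19, 53600398 to 53645833, plus strand) was 20.9, 33.5 and 28.3 FPKM in the Pfn1-KO-labelled libraries, against 53.0 and 45.5 FPKM in the control-labelled ones. All 3 Pfn1-KO-labelled libraries lay below both controls for Smc3, but the difference did not pass (log2 fold change -0.84, SE 0.52, adjusted p = 0.178), although it did with array weights (adjusted p = 0.0442, with 2.69% of all genes called lower) and with limma-voom (adjusted p = 0.0486, with 1.45%). Rad21 (chromosome 15, 51962240 to 51991747, minus strand), the subunit that separase cuts at anaphase, was 66.3, 112.6 and 73.4 FPKM under the Pfn1-KO label, against 92.2 and 125.0 FPKM under the control label (log2 fold change -0.39, SE 0.59, adjusted p = 0.562). Rad21 was the most abundant of the 10 mRNAs in every library. Its rank among 15034 nuclear protein-coding genes was 399, 130 and 263 in the Pfn1-KO-labelled libraries, against 110 and 100 in the control-labelled ones. These genes have purine-rich coding stretches too, and the windows of Rad21 (exon 12 of 14, chr15:51966584-51966633, minus strand), Smc1a (exon 5 of 25, chrX:152026673-152026722, plus strand) and Smc3 (exon 12 of 29, chr19:53623477-53623526, plus strand) are shown for comparison with those of Smc4 and Smc2. All 50 bases of the Rad21 window are purines.
Rad21: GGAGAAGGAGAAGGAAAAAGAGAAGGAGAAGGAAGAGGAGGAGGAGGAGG
Smc1a: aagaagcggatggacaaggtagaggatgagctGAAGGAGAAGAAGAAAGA
Smc3: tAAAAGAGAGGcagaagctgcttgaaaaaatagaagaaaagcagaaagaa

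The HEAT-repeat subunits of cohesin were the cohesin genes with the highest fold changes. Stag1 (chromosome 9, 100597798 to 100959375, plus strand) was 11.2, 14.7 and 13.9 FPKM in Pfn1-KO N2, N3 and N4, against 1.35 and 3.24 FPKM in control N1 and N3. These values rest on 3047, 4304 and 2976 recovered reads under the Pfn1-KO label, against 378 and 871 reads under the control label. The groups lay far apart, with the lowest library labelled Pfn1-KO above the higher control. The log2 fold change was 2.17 (SE 0.45, adjusted p = 0.00651). Its offset from the median of all genes tested was 0.42 as deposited, but -0.34 under median ratios and -1.20 with a pseudocount of 0.1. The call held without each library in turn (adjusted p from 0.00254 to 0.0367). Stag2 (chromosome X, 42149317 to 42277185, plus strand), the alternative to Stag1 in the ring, was 25.6, 60.6 and 31.7 FPKM in the Pfn1-KO-labelled libraries, against 7.23 and 22.5 FPKM in the control-labelled ones. Again all 3 lay above both controls, but with a wider spread in each group, and the difference did not pass (log2 fold change 1.44, SE 0.68, adjusted p = 0.0927). It passed only when control N3 was left out (log2 fold change 2.20, adjusted p = 0.0172). For comparison with the ring subunits, the windows richest in purines of Stag1 (exon 3 of 34, chr9:100712472-100712521, plus strand) and Stag2 (exon 4 of 34, chrX:42211084-42211133, plus strand) are given with the same marking. The Stag1 window held 40 purines and the Stag2 window 42, against 44 for Smc4, 42 for Smc2, 43 for Smc1a, 41 for Smc3 and 50 for Rad21.
Stag1: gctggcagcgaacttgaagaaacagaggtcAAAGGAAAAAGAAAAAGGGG
Stag2: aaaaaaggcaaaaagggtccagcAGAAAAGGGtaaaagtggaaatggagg

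The scale between libraries changed these calls. Equalising the sum over nuclear protein-coding genes lowered the median log2 fold change of all genes to 1.34, scaling by median ratios lowered it to 1.01, and quantile normalization brought it to -0.09. Smc4 was called lower under each of these (log2 fold change -2.79, -3.51 and -2.74). Stag1 was not called under any of them (log2 fold change 1.33, 0.67 and 0.10, adjusted p = 0.0504, 0.340 and 0.893). Smc3 joined Smc4 as lower under the protein-coding scale (adjusted p = 0.0258), where 54.8% of all genes were called higher and 4.24% lower, and Smc1a, Smc3 and Rad21 under median ratios (adjusted p = 0.0366, 0.0116 and 0.0297), where 46.9% were called higher and 6.19% lower. Under quantile normalization 6.99% of all genes were called higher and 12.3% lower, and the subunits called lower were Smc2, Smc4 and Ncapd3 (3 of 10; log2 fold change -1.76, -2.74 and -1.63), with none called higher, nor any at an unadjusted p under 0.05. Without Pfn1-KO N2 the same normalization called none of the 14631 genes, although 1308 were higher and 2306 lower at an unadjusted p under 0.05. Without N3 it called 11.8% of all genes lower and, of the subunits, only Smc3 (adjusted p = 0.0440), and without N4 6.94% and only Smc4 (adjusted p = 0.0376). These leave-outs were added after seeing the data. When every library was scaled to the same total, which raised the median of all genes to 2.93, Smc4 was not called (log2 fold change -1.03, adjusted p = 0.374).

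**Figure D2:**
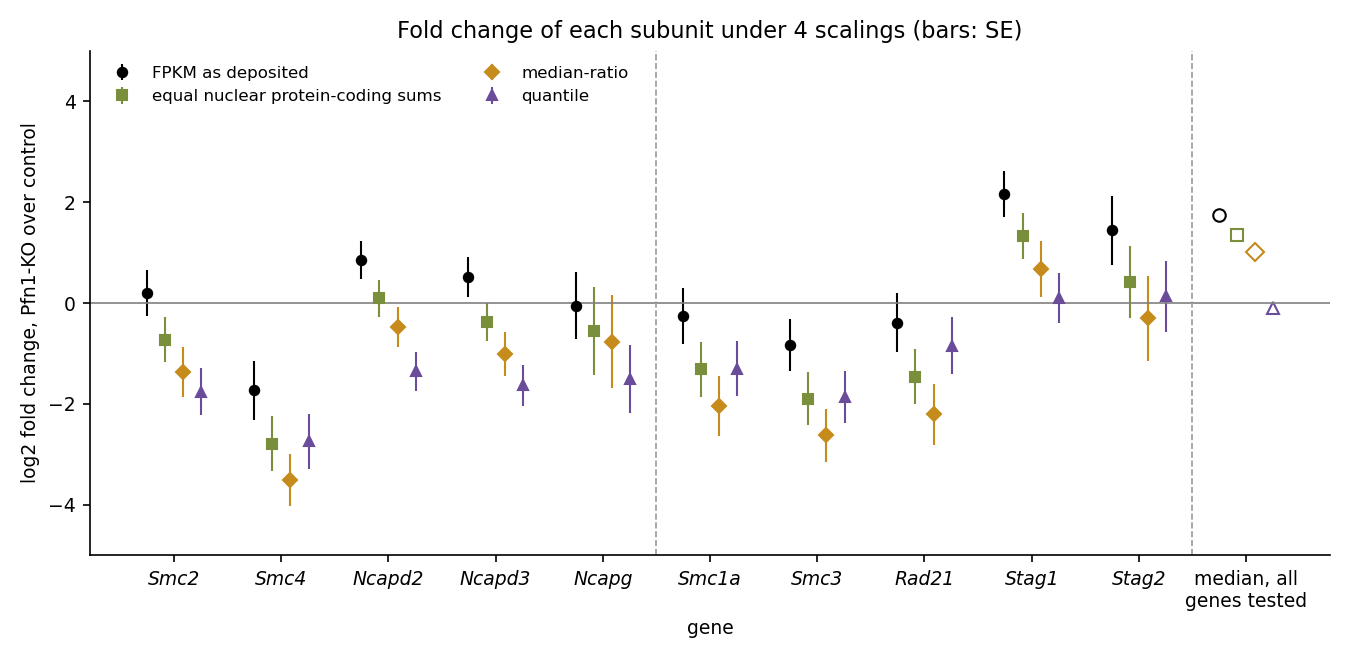
Log2 fold change of each subunit, Pfn1-KO-labelled libraries over those labelled control, with SE, for FPKM as deposited and under 3 other scales; open symbols give the median of all genes tested under each. Smc4 lies below 0 and below that median under all 4 scales, and Stag1 follows the median from 2.17 as deposited to 0.10 under quantile normalization.

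Ratios between subunits of the same library do not depend on the scale between libraries, and they are given as a description, with no test. Smc4 over Smc2 was 3.18, 2.30 and 3.39 in the Pfn1-KO-labelled libraries, against 13.5 and 10.5 in the control-labelled ones, and the groups did not overlap (log2 difference -2.03). Smc4 made up 50.8%, 45.8% and 58.5% of the summed FPKM of the 5 condensin subunits under the Pfn1-KO label, against 82.5% and 83.6% under the control label. Ncapd2 over Smc2 was 0.738, 0.571 and 0.551 in the Pfn1-KO-labelled libraries, against 0.299 and 0.327 in the control-labelled ones. Relative to Smc2, Smc4 was thus lower and Ncapd2 higher in every library labelled Pfn1-KO. Within cohesin, Rad21 over Smc1a was 2.92, 2.79 and 2.06 under the Pfn1-KO label, against 2.90 and 2.68 under the control label, with overlapping groups. Stag1 over Smc1a was 0.493, 0.364 and 0.389 in the Pfn1-KO-labelled libraries, against 0.0426 and 0.0696 in the control-labelled ones (log2 difference 2.92). Stag2 over Smc1a was 1.13, 1.503 and 0.887 under the Pfn1-KO label, against 0.228 and 0.483 under the control label (log2 difference 1.79). Both HEAT-repeat subunits were thus higher relative to the ATPase in every library labelled Pfn1-KO, and Stag1 over Stag2 was also higher there (0.438, 0.242 and 0.438, against 0.187 and 0.144 under the control label). Smc3 over Smc1a was 0.920, 0.831 and 0.794 under the Pfn1-KO label, against 1.67 and 0.978 under the control label, a gap that is narrow against the distance between the controls.

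Condensin was then set against cohesin. The 5 condensin subunits summed to 28.2, 29.5 and 52.1 FPKM in the Pfn1-KO-labelled libraries, against 68.0 and 83.5 FPKM in the control-labelled ones, and the 5 cohesin subunits to 146.6, 261.8 and 183.1 FPKM under the Pfn1-KO label, against 185.5 and 242.9 FPKM under the control label. Cohesin mRNA was the more abundant in all 5 libraries. The condensin to cohesin ratio was 0.192, 0.113 and 0.284 in the Pfn1-KO-labelled libraries, against 0.366 and 0.344 in the control-labelled ones, with no overlap (log2 difference -0.95). This direction rests on Smc4. Without Smc4 the ratio was 0.0947, 0.0610 and 0.118 under the Pfn1-KO label, against 0.0640 and 0.0563 under the control label, with overlapping groups and the opposite sign (log2 difference 0.55). The ratio of the median condensin subunit to the median cohesin subunit was also higher, at 0.198, 0.128 and 0.202 under the Pfn1-KO label, against 0.119 and 0.106 under the control label (log2 difference 0.62). Among the 10 subunits as deposited, the ATPases and the kleisin Rad21 had log2 fold changes between -1.73 and 0.20, whereas Ncapd2, Ncapd3, Stag1 and Stag2 had values between 0.52 and 2.17. Ncapg, at -0.06, did not share this split, and neither did Ncaph2, a condensin kleisin outside the 10, at 2.73. The call of Ncaph2 did not hold under every scale, as given below. The other condensin kleisin, Ncaph, is given below by its level alone.

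**Figure D3:**
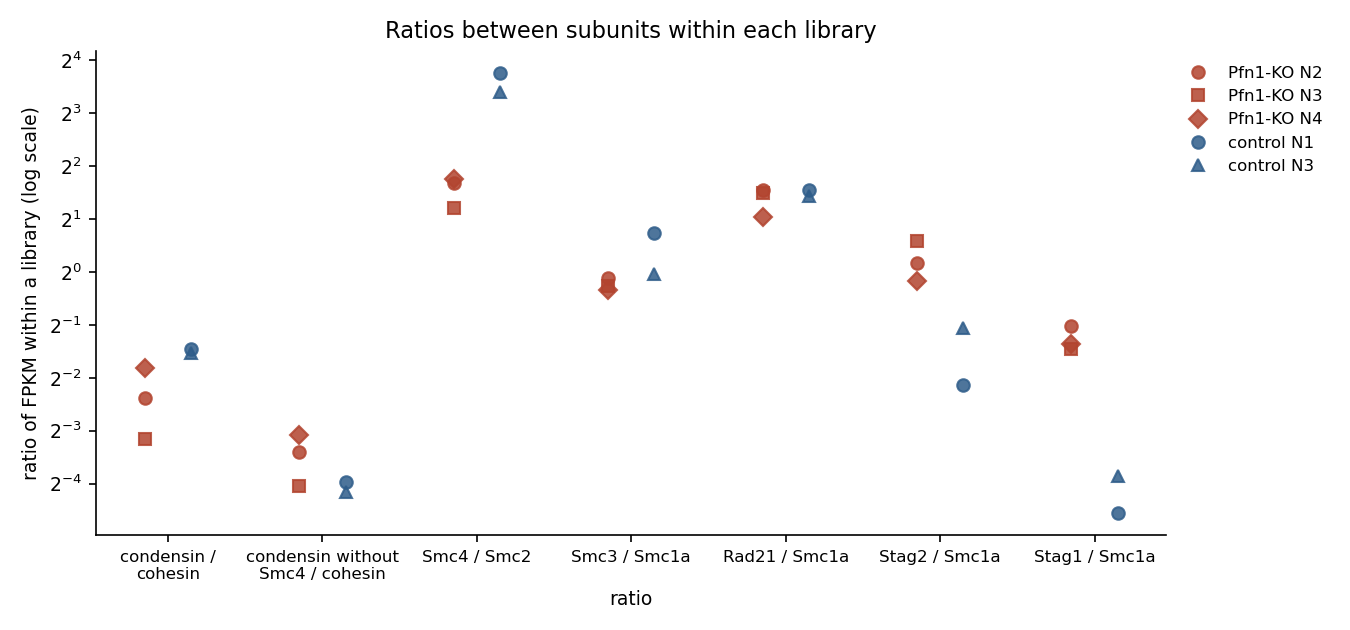
Ratios of FPKM between subunits within each library, on a log scale; each point is 1 library (red, labelled Pfn1-KO; blue, labelled control). Smc4 over Smc2 is lower, and Stag1 and Stag2 over Smc1a are higher, in all 3 Pfn1-KO-labelled libraries than in both controls, while the condensin to cohesin ratio without Smc4 overlaps between the groups.

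The coding sequences of the subunits were compared with those of the 11840 protein-coding genes tested that had one in GENCODE. A and G made up 61.0% of the coding bases of Smc1a, 60.8% of Smc3, 59.7% of Smc2 and 59.6% of Smc4, which placed the 4 ATPases at the 95.8th to 97.7th percentile. Rad21 followed with 57.2% (89.6th percentile), and its longest run of purines, 54 bases, exceeded that of 99.9% of genes. Stag2, Stag1 and Ncapg held 55.9%, 55.3% and 55.2%, and Ncapd2 and Ncapd3, with 52.2% and 51.4%, lay near the middle of all genes. The longest run of Ncapd3 was still 29 bases (97.7th percentile) and that of Ncapg 23 (94.5th), beside 30 for Smc4 (98.0th). The median over all 11840 genes was 52.5%, while it was 58.7% over the 255 of them called lower in the Pfn1-KO-labelled libraries, 52.2% over the 8670 called higher and 53.2% over the 2915 called neither. Among the subunits, the 5 with the most purines were also the ATPases and Rad21. Each of these 5 had a fold change below those of Ncapd2, Ncapd3, Stag1 and Stag2 as deposited. Ncapg lay outside this order as deposited, since with 55.2% purines it was at -0.06, below Smc2 at 0.20. Under quantile normalization this order did not hold, since Rad21 (-0.84) and Smc1a (-1.30) lay above Ncapd2 (-1.36) and Ncapd3 (-1.63). This is a description over 10 genes that share families and ancestry, with no test, and the part of base composition in the fold changes was not tested.

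**Figure D4:**
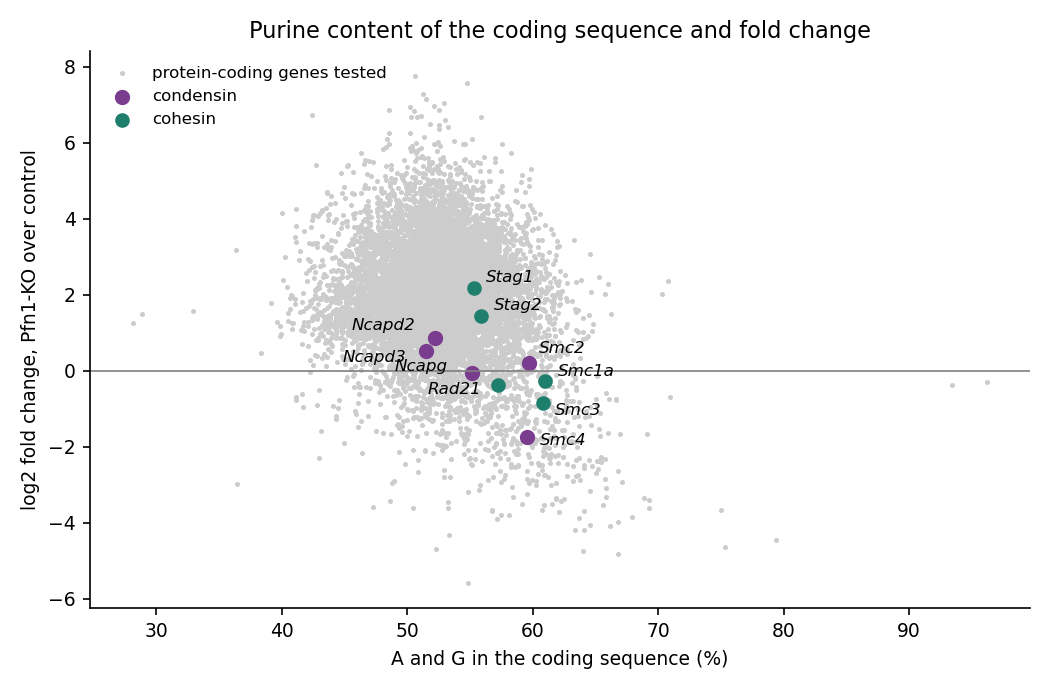
Share of A and G in the coding sequence (x axis, percent) against log2 fold change, Pfn1-KO-labelled libraries over those labelled control (y axis), for 11840 protein-coding genes tested (grey), condensin (purple) and cohesin (green). The ATPases lie at 59.6% to 61.0% and at fold changes of 0.20 or less, whereas Stag1 and Stag2 lie at 55.3% and 55.9% and above 1. Ncapg lies at 55.2% and at -0.06.

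The proteins that load, release and guard the rings were read from a list grouped by role. Of its 33 genes, 32 had a row in the table and 28 passed the filter, and limma called 16 of these higher in the Pfn1-KO-labelled libraries and none lower, nor any lower at an unadjusted p under 0.05 or with limma-voom. The share called higher, 57.1%, was below the 70.1% of all genes, and the median log2 fold change was 1.28 against 1.75. Of the 28, 8 lay under 1 FPKM in both control-labelled libraries, so they passed the filter only through the Pfn1-KO label and had to come out higher (Ncaph, Ncapg2, Rec8, Esco1, Pttg1, Nsmce3, Kif4 and Mcph1). These 8 are given below by their levels alone, and 9 of the other 20 were called higher. Of these 9, only Wapl and Pds5b reached 1 FPKM in both control-labelled libraries. The rest also needed a Pfn1-KO-labelled library to pass the filter, and the share of all genes under the same restriction was not taken. The counts turned with the scale: 9 were called higher and 3 lower with equal protein-coding sums, 9 and 4 with median ratios, and 1 and 4 under quantile normalization. Among the remaining condensin subunits, Ncaph2, the kleisin of condensin II, was 14.0, 7.37 and 17.3 FPKM under the Pfn1-KO label, against 2.93 FPKM and a listed 0 under the control label (log2 fold change 2.73, adjusted p = 0.0127). Ncaph2 was not called with equal protein-coding sums, median ratios or quantile normalization (adjusted p = 0.0745, 0.149 and 0.364). Nor was it called with limma-voom (0.135), or without Pfn1-KO N2 (0.0708) or N4 (0.0629). Ncapg2 of the same complex was 1.88, 2.36 and 2.96 FPKM under the Pfn1-KO label, against 0.997 FPKM and a listed 0 under the control label. Ncaph, the kleisin of condensin I, was 1.11, 3.35 and 1.83 FPKM under the Pfn1-KO label, against 0.744 and 0.0712 FPKM under the control label. With these 3 genes added, the condensin to cohesin ratio was 0.308, 0.163 and 0.405 in the Pfn1-KO-labelled libraries, against 0.392 and 0.344 in the control-labelled ones, and overlapped between the groups.

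Of the regulators of cohesin, the release factor Wapl, which opens the ring, was among the genes called higher. It was 49.9, 41.5 and 60.8 FPKM in the Pfn1-KO-labelled libraries, against 1.95 and 5.94 FPKM in the control-labelled ones (log2 fold change 3.50, SE 0.56, adjusted p = 0.00277). It was also the only gene of the list called higher under quantile normalization (log2 fold change 2.01, adjusted p = 0.0481), a call not made without Pfn1-KO N2, N3 or N4 in turn (adjusted p = 0.153, 0.0837 and 0.136), where 0, 838 and 257 of all 14631 genes were called higher. Its partners in release were called higher as well, Pds5a with a log2 fold change of 2.47 (adjusted p = 0.00365) and Pds5b with 1.31 (adjusted p = 0.0403). The Pds5b value lay below the median of all genes tested, 1.75. Pds5b was not called with equal protein-coding sums, median ratios or quantile normalization (log2 fold change 0.37, -0.31 and -0.57). Pds5a was called with equal protein-coding sums and median ratios (1.73 and 1.18) but not under quantile normalization (0.25). The loader Nipbl was 38.3, 36.05 and 54.3 FPKM under the Pfn1-KO label, against 25.6 and 21.6 FPKM under the control label, and was not called (log2 fold change 0.82, adjusted p = 0.183). Its partner Mau2 was called higher (2.64, adjusted p = 0.00381). Mau2 was also called with equal protein-coding sums and median ratios (2.08 and 1.71). It was not called under quantile normalization (0.60, adjusted p = 0.392) or with limma-voom (adjusted p = 0.0891). Within libraries, Wapl over Nipbl was 1.30, 1.15 and 1.12 under the Pfn1-KO label, against 0.0761 and 0.276 under the control label, and Wapl over Rad21 was 0.752, 0.368 and 0.828 under the Pfn1-KO label, against 0.0211 and 0.0475 under the control label. Esco1, an acetyltransferase that locks the ring by modifying Smc3, was 15.5, 5.98 and 21.8 FPKM under the Pfn1-KO label, against a listed 0 and 0.421 FPKM under the control label. Pttg1, the securin that holds separase in check, was 9.003, 4.64 and 6.32 FPKM under the Pfn1-KO label, against a listed 0 and 0.0219 FPKM under the control label. Esco2, Cdca5, Hdac8 and Sgo1, which act in the establishment, recycling and protection of cohesion, were not called, and each was listed at 0 in control N3. The meiotic kleisin Rec8 was 2.49, 2.41 and 2.53 FPKM under the Pfn1-KO label and was listed at 0 in both controls.

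**Figure D5:**
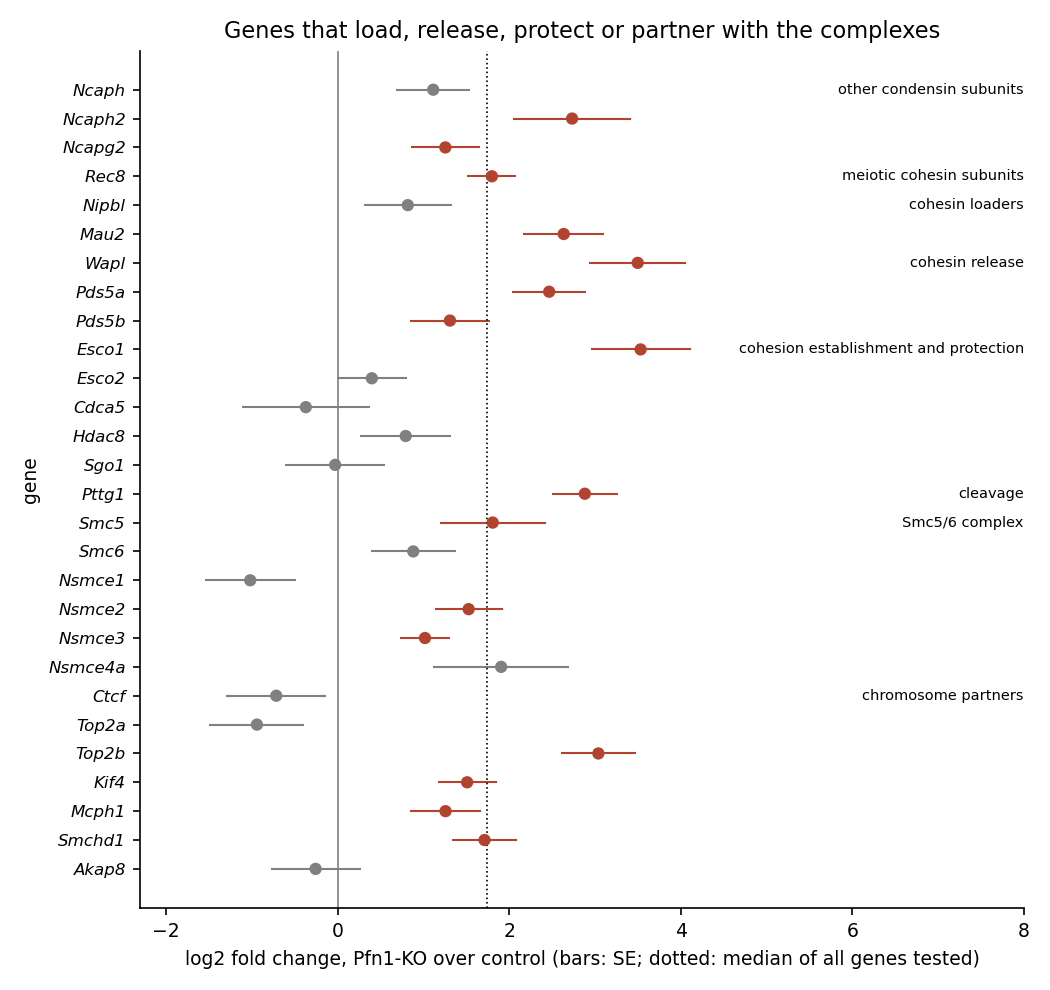
Log2 fold change with SE for the 28 genes of the role list that passed the filter, Pfn1-KO-labelled libraries over those labelled control; red marks genes called higher, 7 of which lay under 1 FPKM in both control-labelled libraries, grey genes not called, and the dotted line is the median of all genes tested, 1.75. Apart from those 7, Wapl and Top2b lie above 3, and Top2a, Ctcf, Nsmce1, Cdca5, Akap8 and Sgo1 lie below 0.

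The third SMC complex, Smc5/6, which works in DNA repair and restraint of viral DNA, was mixed. Smc5 was 10.1, 10.2 and 15.8 FPKM in the Pfn1-KO-labelled libraries, against 5.82 and 0.962 FPKM in the control-labelled ones (log2 fold change 1.81, adjusted p = 0.0364). Its partner Smc6 was 11.9, 10.4 and 16.0 FPKM under the Pfn1-KO label, against 4.30 and 9.25 FPKM under the control label, and was not called (0.88, adjusted p = 0.142). The 2 controls gave opposite orders for this pair, since Smc5 over Smc6 was 1.35 in control N1 and 0.104 in control N3. Of the non-SMC subunits, Nsmce2 was called higher (1.53, adjusted p = 0.0143) and Nsmce4a was not (1.91, adjusted p = 0.0649). The Nsmce2 value lay below the median of all genes tested, 1.75. Neither Smc5 nor Nsmce2 was called with equal protein-coding sums, median ratios or quantile normalization. Nsmce3 was 1.57, 0.872 and 1.17 FPKM under the Pfn1-KO label, against 0.0497 and 0.111 FPKM under the control label, and Nsmce1 lay below both controls in all 3 Pfn1-KO-labelled libraries without passing (5.70, 9.98 and 4.96 FPKM under the Pfn1-KO label, against 9.999 and 20.6 FPKM under the control label, adjusted p = 0.116). Nsmce1 was called lower with equal protein-coding sums, median ratios and quantile normalization (adjusted p = 0.0238, 0.0203 and 0.0293), with array weights (0.0239) and without control N1 (0.0395).

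The type II topoisomerases, which untangle DNA and work with both complexes, gave opposite signs, and which of them passed the test depended on the scale. Top2a, the form of dividing cells, was 4.79, 12.7 and 11.0 FPKM in the Pfn1-KO-labelled libraries, against 14.9 and 21.4 FPKM in the control-labelled ones (log2 fold change -0.94, SE 0.55, adjusted p = 0.157). Top2b, the form also present in resting cells, was 13.4, 20.47 and 16.2 FPKM under the Pfn1-KO label, against 0.739 and 1.59 FPKM under the control label (log2 fold change 3.04, SE 0.43, adjusted p = 0.00198). As deposited only Top2b passed, with equal protein-coding sums, median ratios and array weights Top2a was called lower as well (adjusted p = 0.0338, 0.0210 and 0.0372), and under quantile normalization Top2a was called (0.0438) and Top2b was not (0.246). The ratio of Top2a to Top2b was 0.358, 0.619 and 0.680 under the Pfn1-KO label, against 20.1 and 13.5 under the control label (log2 difference -4.95). Smchd1, an SMC protein of X inactivation, was called higher (1.71, adjusted p = 0.00783), near the median of all genes tested, 1.75. It was not called with equal protein-coding sums, median ratios or quantile normalization (0.98, 0.44 and -0.63). The chromokinesin Kif4 was 1.15, 1.83 and 2.78 FPKM under the Pfn1-KO label and was listed at 0 in both control-labelled libraries, and the condensin II antagonist Mcph1 was 2.02, 1.11 and 3.25 FPKM under the Pfn1-KO label, against a listed 0 and 0.578 FPKM under the control label. Ctcf, the DNA-binding protein at which cohesin halts, was 26.1, 12.4 and 24.2 FPKM under the Pfn1-KO label, against 24.9 and 44.7 FPKM under the control label (-0.72, adjusted p = 0.291), and Akap8, which binds condensin on mitotic chromosomes, was not called (-0.26, adjusted p = 0.663).

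Since condensin is best known from mitosis, markers of dividing cells were set beside it. Summed over 9 such genes, the level was 27.6, 38.9 and 68.5 FPKM in the Pfn1-KO-labelled libraries, against 46.1 and 26.3 FPKM in the control-labelled ones. Of the 9, 1 was called higher and none lower, beside 70.1% and 2.13% of all genes tested. Mki67, a protein of proliferating cells, was 13.3, 10.1 and 43.0 FPKM under the Pfn1-KO label, against 7.51 and 3.35 FPKM under the control label (log2 fold change 1.65, adjusted p = 0.0740). Ccnb1, the cyclin of mitotic entry, was 0.842, 1.48 and 1.29 FPKM under the Pfn1-KO label, against 0.910 FPKM and a listed 0 under the control label. Its kinase Cdk1 was 0.982, 2.92 and 1.28 FPKM under the Pfn1-KO label, against 2.83 and 0.551 FPKM under the control label. Control N3, where Aurkb, Birc5, Bub1 and Ccnb1 were listed at 0 together with Ncapg, had the highest level of Smc4. Top2a, itself on the list of dividing cells, was like Smc4 highest in control N3 and lower in all 3 Pfn1-KO-labelled libraries than in both controls. The part of dividing cells in the subunit levels was not tested.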

How the data were processed

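The authors trimmed reads with fastp (version 0.20), mapped the trimmed reads to GRCm38.p6 using STAR (2.7.9), counted them per gene with featureCounts (2.0.0) and, per the methods, kept genes with at least 6 reads in at least 20% of samples. The deposited table holds FPKM for 5 libraries. The methods name TPM, but the column sums differ between libraries, which TPM sums would not. The authors' own differential expression, made with DESeq2 (1.30.1) on counts, was not used. Of 23010 rows, 1991 held no value. Gene names, lengths and coding sequences came from GENCODE vM21 (20985 of 21019 IDs matched); coordinates are GRCm38 and printed sequences are from that annotation's transcripts. The product of FPKM, exon length and library size was a whole number, to a tolerance of 0.02, for 100% of the values of the 20414 genes with the same version. These recovered reads are printed as depth and served a limma-voom alternative. Intervals and limits cover counting error only.

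Genes that reached 1 FPKM in 2 or more libraries were tested with limma (3.58.1, R 4.3.3), two-sided with a mean-variance trend, on log2(FPKM + 1), without covariates. The test was checked on simulated data with the residual spread of the real fit. Among the more highly expressed genes, it called 18.6% of those changed by 2 log2 units and 89.4% of those changed by 4. In the simulation both groups had the Pfn1-KO means and only a small share of genes was changed, whereas most genes were called in the real data. The adjustment was therefore stricter there, and these rates do not give the share that the real test would call. A subunit that did not pass was still not shown to be unchanged. Column names carry N1 to N4, which could not be tied to the replicate numbers in the labels, so columns were used as members of their group. P-values measure the spread between pools. Alternatives were other pseudocounts, filters and scales, array weights, limma-voom and leaving out each library. All 10 subunits are named, as are the genes of the role list that passed the test, its condensin, loader, release and Smc5/6 genes, Mki67, Top2a, Ccnb1, Cdk1 and Pfn1; Nsmce1, Ctcf, Akap8 and the uncalled cohesion genes were named after their values were seen. Members and lists were chosen with earlier results of these data known. Marker lists also covered thick limb (4 of 4 genes called higher), glomerular endothelium (3 of 4), mesangium (2 of 3) and leukocytes (1 of 3), with none lower. Of all genes tested, 70.1% were called higher and 2.13% lower. One marker gene is not reported here.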

Additional observations from a re-analysis of the deposited data

How the results depend on the processing

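No paired analysis was possible because the columns carry no replicate number of the labels, so the planned replicate block was not run. Of 149 pairs of a subunit and an alternative, 114 kept direction and side of the threshold, 8 lost the call, 7 kept direction and gained one, and 20 turned direction, 2 of which also gained a call.

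Genes called higher numbered 2440 of the 4764 genes above 0 in every library. They numbered 1023 of 14631 under quantile normalization, against 10251 of 14631 as deposited, and 6446 to 10698 without each Pfn1-KO-labelled library. Genes called lower numbered 905 under median ratios, 1806 under quantile normalization, 98 under TPM, 620 under the protein-coding scale and 206 with limma-voom, against 312, and 136 to 475 without each library. Subunits called higher numbered 0 under median ratios, quantile normalization (also without Pfn1-KO N2, N3 or N4, added after seeing the data) and the protein-coding scale, and 1 to 2 without each library. Subunits called lower numbered 4, 3 and 2 under these scales, 0 under TPM, 2 each with array weights and limma-voom, 0 to 1 without each library, and 0 under quantile normalization without Pfn1-KO N2.

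Directions turned as follows. Smc2 was -1.37 under median ratios, -1.76 under quantile normalization, -0.73 under the protein-coding scale and -0.022 with array weights, and -0.086 to 0.49 without each library. Ncapd2 was -0.47 and -1.36, and Ncapd3 -1.01 and -1.63, under median ratios and quantile normalization, with Ncapd3 at -0.37 under the protein-coding scale. Ncapg was 0.90 with a pseudocount of 0.1, 0.62 under TPM, 3.30 with limma-voom and -1.18 to 1.07 without each library. Under TPM, Smc1a was 0.47 and Rad21 0.35, and Smc1a was -0.53 to 0.011 without each library. Stag2 was -0.30 under median ratios. The log2 difference in the condensin to cohesin ratio was 0.62 over median subunits and, chosen after seeing the data, 0.55 without Smc4. The cause was not tested for any of these. The results rest on 3 and 2 pools, with few genes detected in the 2 controls and 1 Pfn1-KO-labelled library rich in rRNA. In control N1 and N3, Ncapd2 had 184 and 312 recovered reads, Stag1 378 and 871, and Ncapg 631 and 0. These reads limit what can be read for Ncapg, Ncapd2 and Stag1 in the controls.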
